A study of Homo sapiens with 6 samples.

Results

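The genes described here are 10 genes that make peptides for MHC class I molecules and load them, or that drive the transcription of the others: B2M, TAP1, TAP2, TAPBP, PSMB8, PSMB9, PSMB10, ERAP1, ERAP2 and NLRC5. They were chosen by name, and a probe set stood for a gene if the platform annotation gave it that symbol alone. All 10 had such a probe set, 20 probe sets in all, out of 18417 genes with 19460 such probe sets. Where a gene had several, the probe set that was brightest on average stood for it.

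Expression was measured in WM164, a BRAF-mutant human melanoma line from a lymph node metastasis, on 6 whole-transcript arrays. In the IDTC group, short for induced drug tolerant cells, 3 samples had been kept for 16 days with PLX4032 at 500 nM, the drug vemurafenib, which blocks mutant BRAF. The Parent group held 3 samples given DMSO, for a time that the labels do not state. A single line was used, with replicates kept in parallel whose origin from separate experiments is not stated, so the p-values rest on a spread that may be partly technical.

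MHC class I molecules show peptides from inside the cell to CD8 T cells. The proteasome cuts proteins to peptides, and in cells that have seen interferon the catalytic subunits PSMB8, PSMB9 and PSMB10 replace the constitutive PSMB5, PSMB6 and PSMB7. The TAP1 and TAP2 proteins form the pump that carries peptides into the endoplasmic reticulum, where the aminopeptidases ERAP1 and ERAP2 trim them. Tapasin (TAPBP) holds the pump close to the class I heavy chain and its light chain, beta-2 microglobulin (B2M). NLRC5 is the transactivator of class I genes, which acts through a complex of RFX, NFY and CREB/ATF1 factors on their promoters. Loss of these steps is a known way for melanoma cells to escape T cells.

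Interferon acts on many of these genes through the interferon-stimulated response element (ISRE), so the 200 bases before the annotated start are shown for the members whose changes in opposite directions the results turn on, and for PSMB9, which shares its upstream region with TAP1. The sequences are from RefSeq (GRCh38.p14), 5′ to 3′ on the strand of the gene, and capitals mark matches to the ISRE letters GAAANNGAAA on either strand.
B2M (chr15:44711317-44711516, plus strand): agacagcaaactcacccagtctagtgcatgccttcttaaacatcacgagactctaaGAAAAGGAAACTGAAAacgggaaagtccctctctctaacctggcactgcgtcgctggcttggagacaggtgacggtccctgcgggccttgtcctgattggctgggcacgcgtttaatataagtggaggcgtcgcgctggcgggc
TAPBP (chr6:33314079-33314278, minus strand): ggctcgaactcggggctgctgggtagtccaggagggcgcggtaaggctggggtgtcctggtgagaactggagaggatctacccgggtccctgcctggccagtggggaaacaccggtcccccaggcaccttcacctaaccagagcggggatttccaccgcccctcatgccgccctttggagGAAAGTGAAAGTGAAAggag
TAP2 (chr6:32838740-32838939, minus strand): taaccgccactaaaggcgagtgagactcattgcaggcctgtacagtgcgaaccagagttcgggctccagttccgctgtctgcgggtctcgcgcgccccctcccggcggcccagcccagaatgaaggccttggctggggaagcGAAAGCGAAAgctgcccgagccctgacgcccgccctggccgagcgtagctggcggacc
TAP1 (chr6:32853705-32853904, minus strand): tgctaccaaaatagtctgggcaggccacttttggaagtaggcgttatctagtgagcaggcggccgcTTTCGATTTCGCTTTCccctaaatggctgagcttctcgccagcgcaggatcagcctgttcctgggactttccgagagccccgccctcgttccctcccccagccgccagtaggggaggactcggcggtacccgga
PSMB9 (chr6:32853992-32854191, plus strand): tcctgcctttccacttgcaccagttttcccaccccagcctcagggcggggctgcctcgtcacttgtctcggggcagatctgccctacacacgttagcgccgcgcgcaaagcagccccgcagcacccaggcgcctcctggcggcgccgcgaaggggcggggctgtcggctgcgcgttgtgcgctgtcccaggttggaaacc

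The promoter table held windows from 250 bases before to 50 bases after the start for 9 of the 10 members, 13 windows in all because TAP1, PSMB8, ERAP1 and ERAP2 had 2 each. The ISRE letters lay in 8 of the 13 windows, in 1 window each of B2M, TAP1, TAP2, TAPBP, PSMB8, PSMB10, ERAP1 and ERAP2, against 3.57% of the 35116 windows in the table. In B2M, TAP1 and TAPBP 2 overlapping matches made up the marked run, in the PSMB8 window the match crossed the start, and in ERAP1 it lay 3 to 12 bases after it, so that gene is not shown. The TAP1 run lies between the TAP1 and PSMB9 starts but outside the PSMB9 window, so it was not counted for PSMB9. The interferon gamma activated site (GAS, TTCNNNGAA) lay in 2 member windows, of TAP1 and PSMB8, against 7.66% of all windows. The CCAAT letters bound by NFY were in 4 member windows, of B2M, TAP1, PSMB9 and ERAP1 (34.6% of all windows). They stood for 3 places in the genome, because the TAP1 and PSMB9 matches were the same 5 bases, in the 13 bases that their windows share. The letters TGACG, a CREB/ATF half-site, were also in 4 (24.6% of all windows), of B2M, TAP2, PSMB8 and PSMB9. Both strands were searched, no match of one motif overlapped a match of another, and a match describes letters and not a bound site.

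**Figure D1:**
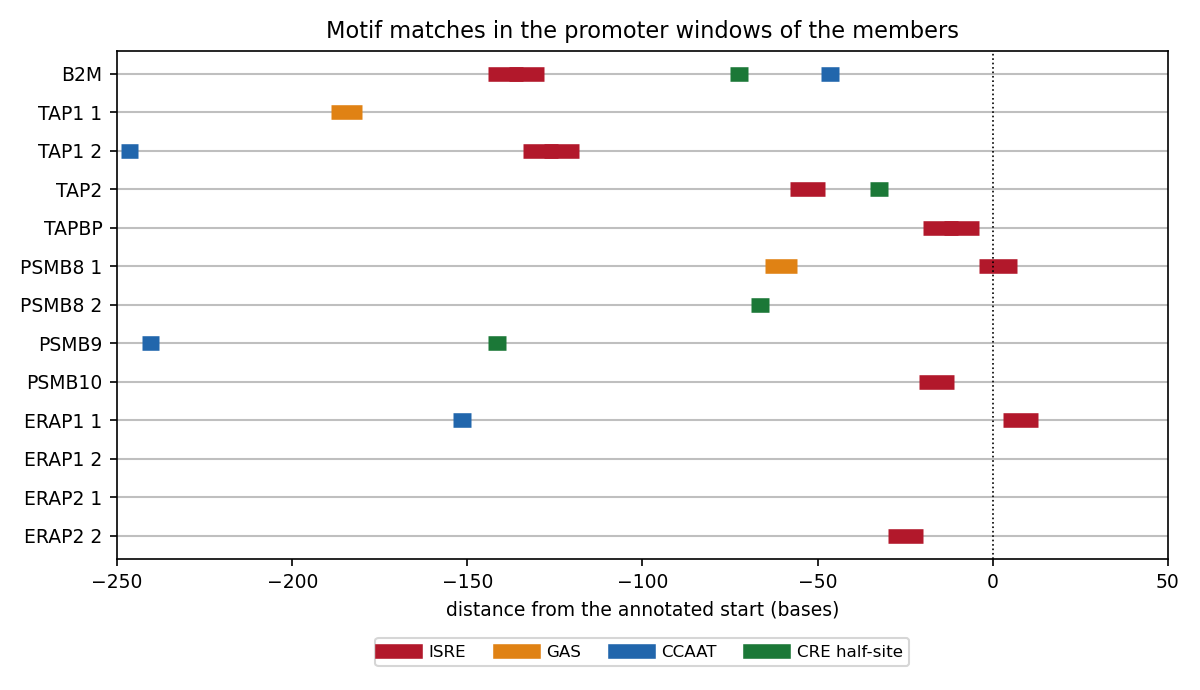
Matches to 4 motifs in the 13 promoter windows of 9 members, by distance in bases from the annotated start (dotted line); a number after a name tells the windows of one gene apart. ISRE matches (red) lie at -144 to -129 in B2M, at -134 to -119 in TAP1, at -58 to -49 in TAP2 and at -20 to -5 in TAPBP.

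The class I processing genes did not move as one group in the drug-tolerant cells. B2M, TAPBP and ERAP1 rose, TAP1 and TAP2 fell, and the 3 immunoproteasome subunits, ERAP2 and NLRC5 were not called. The calls were made with limma over all genes at a Benjamini-Hochberg adjusted p under 0.05, and adjusted p-values below are from that fit. With 5 of 10 called, the share was near the 46.6% of all genes called, so the number of calls says nothing particular about these genes. The share called higher was 21.7% over all genes (3 of 10 members), and the share called lower was 24.9% (2 of 10). The median log2 fold change (IDTC minus Parent) was 0.02 over the 10 members and -0.01 over all genes.

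**Figure D2:**
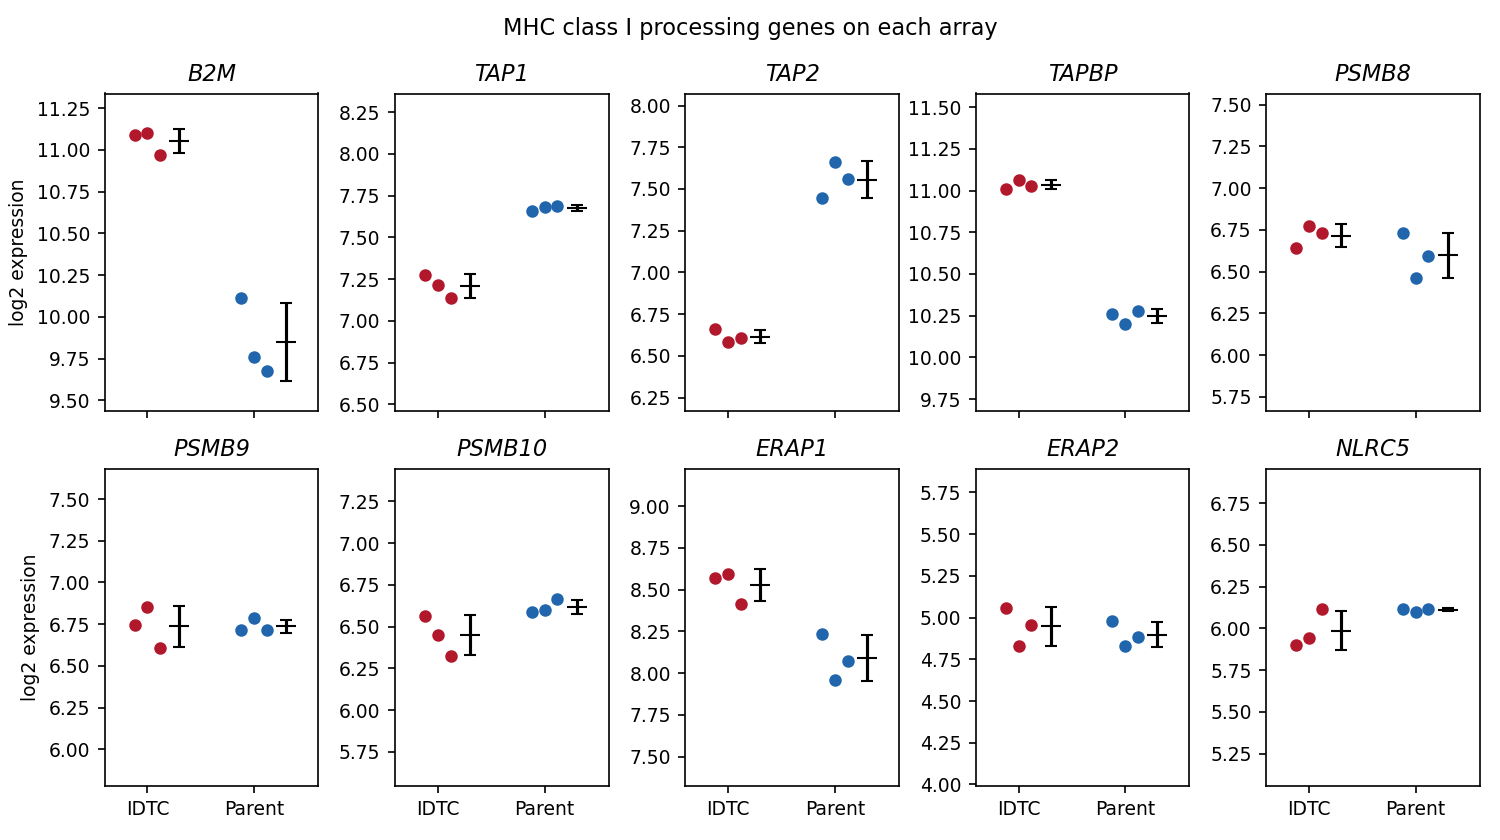
Log2 expression of each member on the 3 IDTC arrays (red) and the 3 Parent arrays (blue), with the mean and SD of each group in black; every panel spans the same log2 range. The groups stand apart for B2M, TAPBP, ERAP1, TAP1 and TAP2, and by a narrow gap for PSMB10.

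B2M encodes the light chain without which class I heavy chains do not reach the cell surface. Its log2 expression was 11.09, 11.10 and 10.97 on the IDTC arrays, against 10.11, 9.76 and 9.68 on the Parent arrays. All IDTC arrays lay above all Parent arrays, and Parent 1 was the highest of its group. B2M averaged 11.05 ± 0.07 in IDTC and 9.85 ± 0.23 in Parent samples (SD, n = 3 each). It rose by 1.20 ± 0.12 (SE), 2.30-fold, with an adjusted p of 9.55e-05, the largest change among the 10 members and larger than that of 94.0% of all genes. Because these are bulk samples, a change in all cells cannot be told apart from a change in the make-up of the culture.

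TAPBP, the loading chaperone tapasin, read 11.01, 11.06 and 11.03 in IDTC and 10.26, 10.20 and 10.28 in Parent samples. The groups were far apart for their spread. TAPBP rose by 0.79 ± 0.05 (1.73-fold, adjusted p = 1.48e-05 by limma). Its dimmer pair of probe sets moved the same way, by 0.77 and 0.67. ERAP1, which trims peptides to the length that class I molecules bind, read 8.57, 8.59 and 8.42 in IDTC and 8.24, 7.96 and 8.08 in Parent samples. These groups did not overlap either, with IDTC 3 and Parent 1 closest to each other. ERAP1 rose by 0.44 ± 0.09 (1.35-fold, adjusted p = 0.00456). Non-overlapping groups with IDTC above were found for 25.4% of all genes and for 3 of the 10 members.

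TAP2, one chain of the peptide pump, moved the other way. It read 6.66, 6.58 and 6.61 in IDTC and 7.45, 7.66 and 7.56 in Parent samples, with no overlap. TAP2 fell by 0.94 ± 0.07 on the log2 scale (1.92-fold lower, adjusted p = 2.47e-05 by limma), and the other probe sets of the gene fell by 0.875 and 0.85. The TAP2 mean lay at the 44.9th percentile of genes in IDTC and at the 58.8th in Parent samples. If the IDTC signal was background, the fall may be understated. TAP1, its partner chain, read 7.28, 7.22 and 7.14 in IDTC and 7.66, 7.68 and 7.69 in Parent samples. The IDTC arrays were again all below the Parent arrays. TAP1 fell by 0.47 ± 0.06 (1.38-fold lower, adjusted p = 0.000344). Its 3 probe sets held identical values on every array, as did those of PSMB8 and PSMB9, so they are not separate measurements. Those of TAP2 and TAPBP differed in value, but whether they share probes is not known here, so they may not be separate either.

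None of the 3 immunoproteasome subunits was called, and the 95% intervals of their log2 fold changes together spanned -0.34 to 0.31. PSMB8 replaces PSMB5 and carries the chymotrypsin-like activity. It read 6.64, 6.77 and 6.73 in IDTC and 6.73, 6.46 and 6.596 in Parent samples, and the groups overlapped. Its log2 fold change of 0.12 had a 95% interval of -0.07 to 0.31 (adjusted p = 0.275). PSMB9, which replaces PSMB6, read 6.75, 6.86 and 6.61 in IDTC and 6.71, 6.78 and 6.71 in Parent samples. Both groups averaged 6.74, with a 95% interval of the difference of -0.17 to 0.17 (adjusted p = 0.997 by limma). PSMB10, which replaces PSMB7, read 6.57, 6.45 and 6.33 in IDTC and 6.59, 6.597 and 6.67 in Parent samples. Its IDTC arrays all lay below its Parent arrays, with a gap smaller than the spread of the IDTC arrays. The log2 fold change of -0.17 (95% interval -0.34 to 0.00) was not called (adjusted p = 0.0987), but without IDTC 1 it was -0.23 and was called (adjusted p = 0.0377). Groups with IDTC below and no overlap were found for 28.7% of all genes and for 3 of the 10 members.

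ERAP2, the second trimming aminopeptidase, had a signal at the 16.2nd percentile of all genes. It read 5.06, 4.83 and 4.96 in IDTC and 4.98, 4.83 and 4.88 in Parent samples. The groups overlapped, and the log2 fold change was 0.05 (95% interval -0.13 to 0.23, adjusted p = 0.641). NLRC5, the class I transactivator, was also dim, at the 35.1st percentile. It read 5.90, 5.94 and 6.12 in IDTC and 6.12, 6.10 and 6.12 in Parent samples. IDTC 3, Parent 1 and Parent 3 held the same deposited value to its last decimal, which limits what its spread can show. Over all probe sets 21.8% had an identical value on 2 or more arrays and 7.29% on 3 or more. Among the other genes named below, GBP3, HLA-DPA1 and TYR shared a value on 2 arrays, so their SE has the same limit. To the decimals kept here, CD1B, PTPRC, S100B and MITF also held equal values on 2 arrays. The NLRC5 log2 fold change was -0.13 (95% interval -0.29 to 0.04, adjusted p = 0.185), and without IDTC 3 it was -0.19 and was called (adjusted p = 0.0195). The deposited table carries no detection call, so whether ERAP2 and NLRC5 lay above background is not known. The same holds for PSMB8, PSMB9 and PSMB10, at the 45.0th, 46.1st and 43.0th percentiles.

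**Figure D3:**
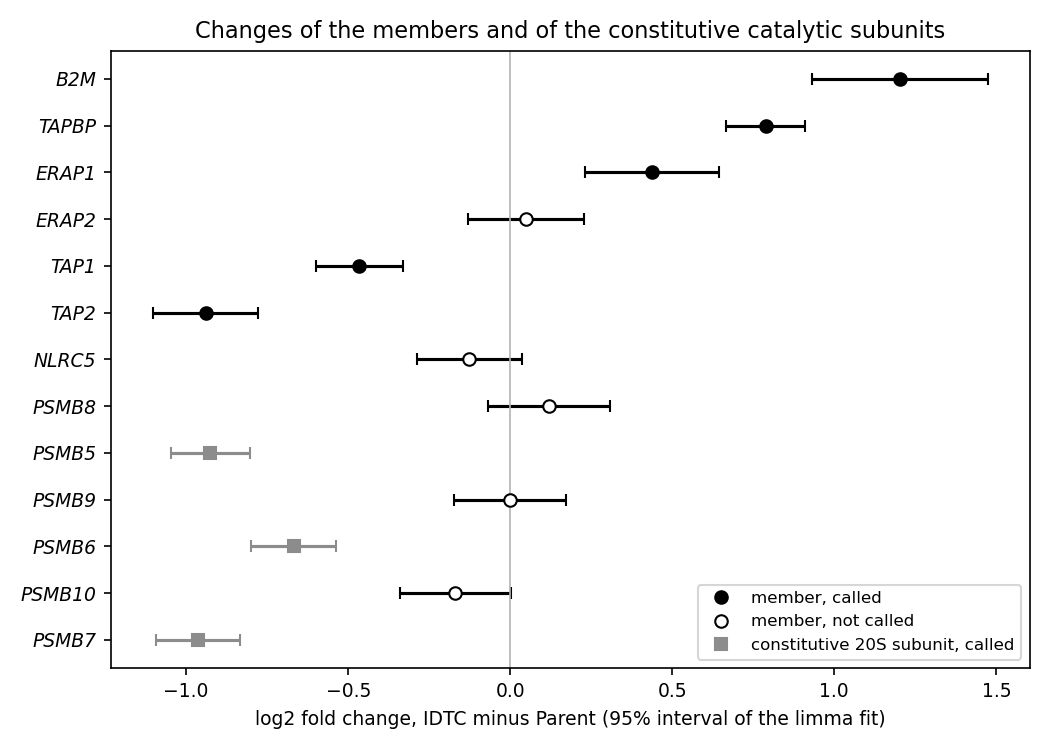
Log2 fold change (IDTC minus Parent) with its 95% interval for the 10 members (circles, open where not called) and for the constitutive catalytic subunits PSMB5, PSMB6 and PSMB7 (grey squares). B2M is farthest to the right at 1.20 and TAP2 is the lowest member at -0.94, while each immunoproteasome subunit lies near 0 above its constitutive counterpart, which lies between -0.67 and -0.96.

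The genes of the 20S proteasome core fell while the interferon-induced subunits were not called. All 14 genes of that core fell, with a median log2 fold change of -0.86, where 24.9% of all genes were called lower. Among them only PSMB5, PSMB6 and PSMB7 are replaced in cells that have seen interferon, and the rest belong to both forms. PSMB5 read 9.95, 10.02 and 9.999 in IDTC and 10.89, 10.94 and 10.91 in Parent samples and fell by 0.93 ± 0.05. PSMB6 read 11.47, 11.42 and 11.46 in IDTC and 12.08, 12.08 and 12.18 in Parent samples and fell by 0.67 ± 0.06. PSMB7 read 9.96, 9.98 and 9.90 in IDTC and 10.88, 10.89 and 10.96 in Parent samples and fell by 0.96 ± 0.06. The core subunit genes with the largest changes were PSMB3 (-1.45), PSMA5 (-1.19), PSMA3 (-1.03) and PSMA6 (-1.02).

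Whether the genes of a pair changed unequally was tested on the difference between them on each array, with 5 pairs compared. PSMB8 minus PSMB5 averaged -3.27 ± 0.03 in IDTC and -4.32 ± 0.16 in Parent samples (SD), a shift of 1.04 log2. PSMB9 minus PSMB6 averaged -4.71 ± 0.14 in IDTC and -5.38 ± 0.09 in Parent samples, a shift of 0.67. PSMB10 minus PSMB7 averaged -3.50 ± 0.09 in IDTC and -4.29 ± 0.001 in Parent samples, a shift of 0.79. The sizes of these differences within a group depend on the probes and are not ratios of transcript numbers, so only the shift can be read. These shifts are made up mostly of the falls of PSMB5, PSMB6 and PSMB7. With no detection call, whether PSMB8, PSMB9 and PSMB10 lay above background is not known, and a gene at background could not have followed its counterpart. TAP2 minus TAP1 averaged -0.59 ± 0.06 in IDTC and -0.12 ± 0.10 in Parent samples, a shift of -0.47. If the TAP2 signal in IDTC samples was background, this shift may be understated. ERAP2 minus ERAP1 averaged -3.58 ± 0.16 in IDTC and -3.19 ± 0.07 in Parent samples, a shift of -0.39, where ERAP1 alone rose by 0.44. ERAP2 was dimmer still, so this shift does not show that ERAP2 itself changed or failed to change. The groups did not overlap for any of the 5 pairs. Each had p = 0.1 in a 2-sided exact permutation test, adjusted p = 0.1 over the 5 pairs, which is the smallest p that 3 against 3 arrays allow, so none can pass 0.05.

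**Figure D4:**
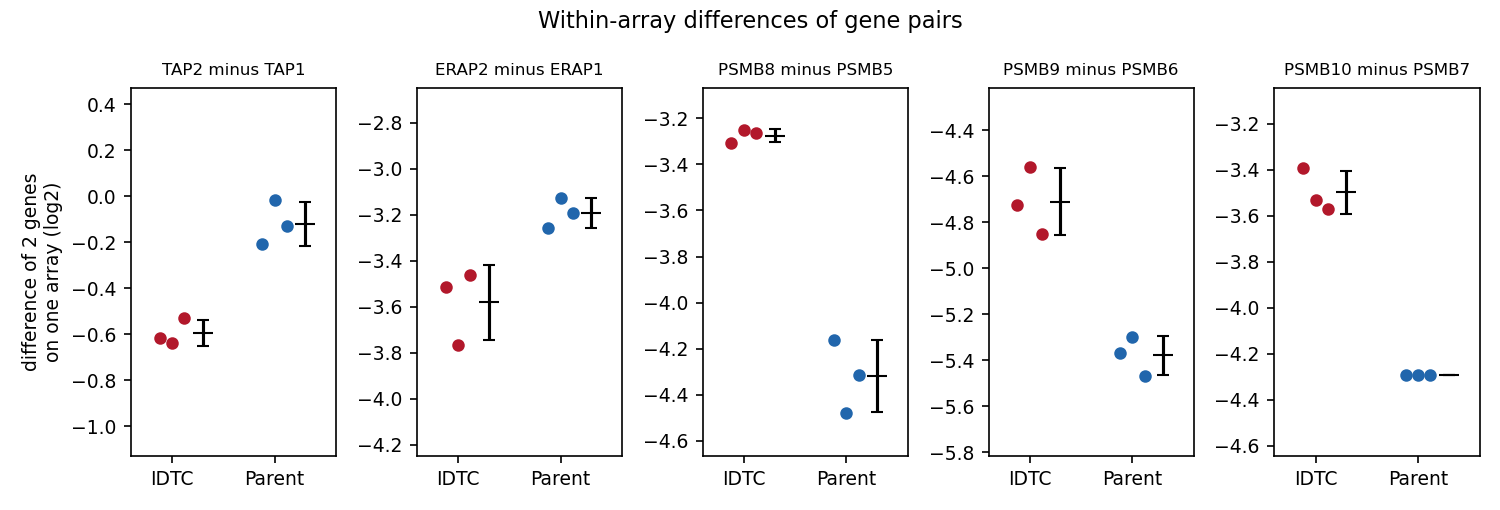
Difference between the log2 values of 2 genes on each array, for 3 IDTC (red) and 3 Parent (blue) arrays, with mean and SD in black; every panel spans the same log2 range. The difference shifted by 1.04, 0.67 and 0.79 for the immunoproteasome genes minus their constitutive counterparts, by -0.47 for TAP2 minus TAP1 and by -0.39 for ERAP2 minus ERAP1, where ERAP1 alone rose by 0.44.

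Other proteasome genes and peptidases also mostly fell, where 24.9% of all genes were called lower. Among 9 genes of proteasome activators and assembly factors, 8 fell (median -0.67), led by the assembly chaperone genes PSMG1 (-0.99), PSMG3 (-0.88) and POMP (-0.83) and the nuclear activator gene PSME3 (-0.76). The count called was 7 after quantile normalization, without the dimmest 40% of genes, or with arrays re-centred on the median of the genes tested. The interferon-induced activator PA28 is made of the products of PSME1 and PSME2. PSME1, the member not called, averaged 9.56 ± 0.02 in IDTC and 9.57 ± 0.0031 in Parent samples, and PSME2 fell by 0.31 ± 0.09 (adjusted p = 0.0304). Both were named after their values were seen. Of 7 measured peptidase genes that cut or destroy such peptides, 5 fell and 2 were not called (median -0.70). The count called was 4 after quantile normalization, with the replicate block, or with arrays re-centred on all probe sets or on the genes tested. It was 6 without the dimmest 40% of genes or with the trend and robust variance model. THOP1, a peptidase that degrades peptides in the cytosol, fell by 1.13 ± 0.06, the insulin-degrading enzyme gene IDE fell by 0.97 ± 0.08, the leucine aminopeptidase gene LAP3 fell by 0.72 ± 0.05 and NLN fell by 0.70 ± 0.06.

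Folding helpers of the peptide-loading compartment mostly fell, whereas TAPBP rose. Of 6 measured, 4 fell, 1 rose and 1 was not called (median -0.34), where 24.9% of all genes were called lower and 21.7% higher. The luminal chaperone HSP90B1 read 11.62, 11.58 and 11.52 in IDTC and 12.36, 12.41 and 12.34 in Parent samples. It fell by 0.80 ± 0.05, with no overlap. Calreticulin (CALR), which sits with tapasin in the loading complex, fell by 0.61 ± 0.06, the chaperone gene HSPA5 fell by 0.41 ± 0.06 and the glucosyltransferase gene UGGT1, which checks glycoprotein folding, fell by 0.27 ± 0.07. The gene that rose was TAPBPL (0.27 ± 0.06), the tapasin relative that edits peptides, named here after its value was seen.

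The classical heavy chain genes were not analysed here, so B2M could be set beside class I-like genes only. Among 10 class I-like genes 1 rose and 2 fell (median -0.02), 30% against 46.6% of all genes, and the count was 5 in place of 3 without IDTC 1. The 7 not called were FCGRT (0.03), HFE (-0.03) and the genes CD1A, CD1B, CD1C, CD1D and CD1E. MR1, which pairs with B2M and presents vitamin B metabolites, read 9.52, 9.62 and 9.47 in IDTC and 7.85, 7.61 and 7.81 in Parent samples and rose by 1.78 ± 0.08. The stress ligand genes MICB and MICA, whose products bind the receptor NKG2D, fell by 1.51 ± 0.07 and 1.24 ± 0.08. MICB read 7.95, 7.85 and 7.81 in IDTC and 9.46, 9.35 and 9.32 in Parent samples. For these 3 genes the groups did not overlap.

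The factors that act on class I promoters were called about as often as all genes. Among 11 measured factors limma called 3 higher and 2 lower (median 0.05), 45.5% against 46.6% of all genes. That share says nothing particular about these factors. NFYB, named after its value was seen, was called higher with overlapping groups (0.42 ± 0.14, adjusted p = 0.0476). CREB1, a CRE-binding factor of the complex that NLRC5 joins, rose by 1.04 ± 0.07, and RFX5, the DNA-binding subunit of the RFX trimer, rose by 0.90 ± 0.07. RFXANK, another subunit of that trimer, fell by 0.48 ± 0.09. IRF1, an interferon-induced factor that binds the ISRE, read 6.14, 5.78 and 5.70 in IDTC and 6.61, 6.28 and 6.51 in Parent samples. It fell by 0.59 ± 0.13 (adjusted p = 0.00832 by limma), with IDTC 1 the highest of the lower group.

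Genes of the interferon gamma pathway and its targets moved in both directions. Among 9 measured pathway genes limma called 3 higher and 2 lower (median 0.12), 55.6% against 46.6% of all genes. IFNGR2, a chain of the interferon gamma receptor, read 8.27, 8.30 and 8.22 in IDTC and 9.67, 9.62 and 9.59 in Parent samples and fell by 1.36 ± 0.05. The phosphatase gene PTPN2, which damps JAK and STAT signalling, fell by 0.83 ± 0.14, while the kinase genes JAK2 and JAK1 rose by 0.58 ± 0.11 and 0.50 ± 0.05. Among 13 measured target genes outside the class I pathway limma called 2 higher and 3 lower (median 0.08), or 38.5%. Both shares lie near that of all genes, so these counts say nothing particular about the lists. The guanylate-binding protein gene GBP2 read 5.07, 5.16 and 5.51 in IDTC and 7.30, 7.15 and 7.16 in Parent samples and fell by 1.96 ± 0.12. Its mean lay at the 21.0th percentile of genes in IDTC and at the 53.3rd in Parent samples, so if the IDTC signal was background the fall may be understated. GBP3 fell by 0.87 ± 0.12, the adhesion gene ICAM1 fell by 0.80 ± 0.05, and CD274, which encodes PD-L1, rose by 0.78 ± 0.11. GBP3 and CD274 were dim, at the 29.2nd and 23.0th percentiles, so whether they lay above background is not known. Leaving out the dimmest 40% of genes removed GBP2, GBP3 and CD274 from the fit, so 2 of these targets were called in place of 5. Among 9 measured class II genes, which are neighbours or relatives of the class I pathway genes, HLA-DPA1 rose (0.58 ± 0.06) and 8 were not called (median 0.06). The share called was 11.1%, against 46.6% of all genes. The count called was 2 without IDTC 1, and 0 without the dimmest 40% of genes, a filter that removed HLA-DPA1.

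**Figure D5:**
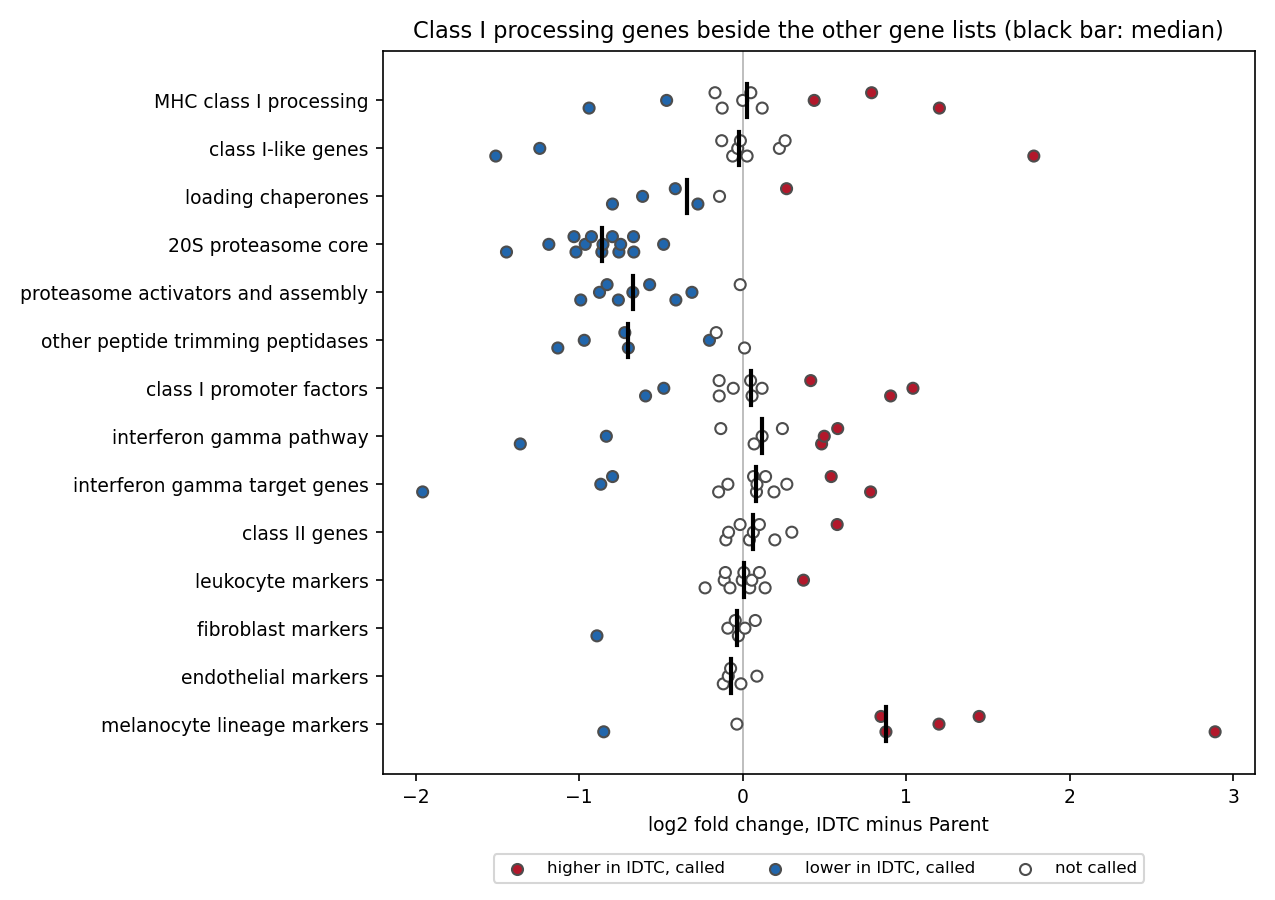
Log2 fold change (IDTC minus Parent) of every measured gene in the class I processing set and in the other lists (red, called higher; blue, called lower; white, not called), with the list median as a black bar. The 20S proteasome core lies wholly below 0 with a median of -0.86, whereas the class I processing genes spread from -0.94 to 1.20 about a median of 0.02.

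Among 4 members that are neighbours in the genome 2 fell and 2 were not called. In the GRCh38.p14 annotation TAP2, PSMB8, TAP1 and PSMB9 follow each other on chromosome 6, between the class II gene HLA-DOB and the gene LOC100294145, and TAPBP lies farther along that chromosome. TAP2 and TAP1 fell, whereas the log2 fold changes of their neighbours PSMB8, PSMB9 and HLA-DOB were 0.12, 0.00 and -0.09 and were not called. TAP1 and PSMB9 are read away from each other from starts with 487 bases between them. The PSMB8-AS1 transcript, antisense to part of PSMB8, was not analysed here. ERAP1 and ERAP2 both lie on chromosome 5, with 2 annotated long non-coding RNA genes between them, which were not analysed here, and with log2 fold changes of 0.44 for ERAP1 and 0.05 for ERAP2.

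The genes most like the highest and the lowest member over the 6 arrays were taken by the root mean square difference of mean-centred log2 values. Closest to B2M were the matrix protein gene MGP (0.044), BPHL (0.058), ALG6 (0.063) and LRRC37B (0.065). MGP read 12.08, 12.04 and 11.91 in IDTC and 10.99, 10.76 and 10.69 in Parent samples, with Parent 1 highest of its group as for B2M. Closest to TAP2 were the metallothionein gene MT1G (0.039), SLC25A4 (0.044), the MEK1 gene MAP2K1 (0.046) and the splicing factor gene SRSF1 (0.047). Within 0.2 log2 lay 505 genes of B2M and 1454 of TAP2, so over 2 groups of arrays these patterns are common.

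Pearson's r across all genes was 0.995 to 0.998 within a group and 0.953 to 0.957 between the groups. Of 7 measured melanocyte lineage markers 5 rose, 1 fell and 1 was not called (median 0.88). Over all genes 21.7% were called higher and 24.9% lower. MLANA averaged 12.39 ± 0.05 in IDTC and 10.94 ± 0.03 in Parent samples, and TYRP1, TYR and PMEL were higher by 2.89, 1.20 and 0.88. S100B fell (-0.85 ± 0.07) and MITF was not called (-0.04), both named after their values were seen. Leukocytes express the class I genes strongly, and 1 of 11 measured leukocyte markers was called (list median 0.01), MS4A1 (0.37 ± 0.12, adjusted p = 0.0417), with the call lost when any single array other than IDTC 1 was left out. The mean log2 level of the 11 markers was 5.40 to 5.56 on the IDTC arrays and 5.35 to 5.52 on the Parent arrays, and PTPRC, the pan-leukocyte marker, read 3.71 to 3.95 in IDTC and 3.63 to 3.71 in Parent samples. Their part in the values of the class I genes was not tested. Of 6 fibroblast markers LUM fell (-0.89 ± 0.14, list median -0.04), and limma called none of 5 endothelial markers (median -0.07). The share called was 9.09% of the leukocyte markers and 16.7% of the fibroblast markers, against 46.6% of all genes. KDR (-0.12) and PECAM1 (-0.09) had the largest differences among the endothelial markers, and none of these had an unadjusted p under 0.05.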

How the data were processed

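RNA from 3 IDTC and 3 Parent samples of WM164 was measured on whole-transcript arrays, 1 array per sample. The deposited table holds log2 expression values for 33297 probe sets, already normalized by the authors. Affymetrix Expression Console, RMA and Partek 6.6 are named, per the submitters' processing notes, without their order, with the genome build not given in the sources used here. Array medians were 6.25 to 6.36 and interquartile ranges 3.31 to 3.60. Gene names came from the platform annotation (19460 probe sets with 1 symbol and 1754 with several). RefSeq (GRCh38.p14) gave the promoter windows and gene order.

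limma 3.58.1 in R 4.3.3 (lmFit, eBayes, 2-sided, no filter, no covariate) was fitted over 18417 genes and tested on simulated data. Members and lists were chosen with earlier results of these data known. Named were all members, from each other list up to 4 called genes with the largest change (2 as values where none was called), the catalytic proteasome subunits, IRF1, and the 4 genes most like the highest and lowest member. Alternatives changed the scaling, the filter on dim genes, the probe set rule, the variance model, the block and the samples used. The number of arrays limits the precision.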

Additional observations from a re-analysis of the deposited data

How the results depend on the processing

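The number of called members was 5 under 12 of the 14 settings run, the main one included, and 6 without IDTC 1 (PSMB10 added) or without IDTC 3 (NLRC5 added). B2M, TAPBP, ERAP1, TAP1 and TAP2 kept their direction and their call under each of them. The replicate numbers of the labels do not state a pairing. Samples with the same number deviated together at r = 0.315, -0.192 and 0.26, and not every sample matched its own number best, so the numbers were not taken as pairs. With the replicate block 5 members and 8855 genes were called. Over all genes 7375 to 8875 were called when 1 array was left out. The balance of higher against lower genes turned with the centring, at 3996 and 4592 as deposited, 3665 and 4693 with arrays re-centred on all probe sets, and 4846 and 4017 re-centred on the genes tested, a setting chosen after seeing the data. The re-centrings moved the median of all genes by less than 0.1 log2 and no member's call. The shifts between paired genes kept their sign in every setting run for them. When 1 array was left out they were 0.96 to 1.12 for PSMB8 minus PSMB5, 0.59 to 0.74 for PSMB9 minus PSMB6, 0.74 to 0.83 for PSMB10 minus PSMB7, -0.52 to -0.42 for TAP2 minus TAP1 and -0.45 to -0.30 for ERAP2 minus ERAP1. After quantile normalization PECAM1 was called lower (adjusted p = 0.036). No detection call was given, so the background under dim genes is unknown. Among these were ERAP2, NLRC5, the immunoproteasome genes, GBP2, GBP3, CD274 and IRF1, and TAP2 in IDTC samples.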
